A study of Mus musculus with 18 samples.

Results

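Sox4, Sox9, Sox10, S100b, Ncmap and Pmp22 are 6 genes known from the Schwann cell lineage that were read here in mouse mammary tumours driven by ErbB2, a receptor tyrosine kinase. They were picked by name among the 28919 genes of the arrays, with earlier values of the tumours against normal gland in view, and every probe carrying one of these names in the array files was kept, which gave 10 of 41174 probes. Sox9 had 3 probes, Sox10 and Pmp22 had 2 each, and Sox4, S100b and Ncmap had 1 each. The probe of Ncmap carries the older name A330049M08Rik in the files and was assigned through its accession.

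RNA of 3 groups was compared, all of it from female FVB/N mice and taken from whole mammary tissue that had been flash-frozen. The KI group comprised 5 single tumours of ErbB2 knock-in mice. The NIC group comprised 2 pools, each made from equal amounts of 5 NIC tumours. The normal group comprised 2 normal mammary glands, and the labels give neither an age nor a transgene for them. As background, mice called NIC carry a transgene in which the mammary-active MMTV promoter drives activated ErbB2 together with Cre recombinase, whereas a knock-in places ErbB2 under its own promoter. The labels used here spell out neither construct. A pool averages over its tumours, so the spread between NIC pools and the spread between KI tumours are not the same quantity. Each RNA was hybridised on 2 arrays, with the dyes exchanged, against a commercial mouse reference RNA. A level below is the log2 ratio of sample over that reference, averaged over the dye pair. Levels of different genes are therefore not on a common scale, and each gene is compared only with itself.

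Sox proteins bind DNA through a domain of the high-mobility-group type. Sox10 sets up the Schwann cell lineage and, with Egr2, switches on myelin genes. Sox9 is its close relative and acts in neural crest, cartilage and many epithelial progenitors, while Sox4 belongs to a separate subgroup of Sox proteins that is active in progenitors and in many tumours. S100b encodes a calcium-binding protein widely used as a glial marker, Ncmap a membrane protein of non-compact myelin, and Pmp22 a 4-span membrane protein of compact myelin that is also made by epithelial cells and fibroblasts. In the mammary gland, Sox9 and Sox10 are known from stem and progenitor cells of the epithelium.

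Of the 6 genes, 4 were found in the RefSeq promoter table (GRCm38.p6), with 8 start sites between them. The windows of Sox4, S100b and Ncmap are shown because these genes were all higher in NIC pools than in normal glands while their promoters differ in base content. Each line gives the 250 bases before the start, 5′ to 3′ on the gene's strand, with CG dinucleotides in capitals. The Sox4 window is chr13:28953700-28953949 on the minus strand, the S100b window chr10:76253586-76253835 on the plus strand, and the Ncmap window chr4:135398228-135398477 on the minus strand.
Sox4: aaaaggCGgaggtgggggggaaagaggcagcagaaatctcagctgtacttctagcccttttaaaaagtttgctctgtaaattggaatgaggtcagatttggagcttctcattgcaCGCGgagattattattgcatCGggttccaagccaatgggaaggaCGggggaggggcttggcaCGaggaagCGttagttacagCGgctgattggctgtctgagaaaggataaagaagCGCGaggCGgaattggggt
S100b: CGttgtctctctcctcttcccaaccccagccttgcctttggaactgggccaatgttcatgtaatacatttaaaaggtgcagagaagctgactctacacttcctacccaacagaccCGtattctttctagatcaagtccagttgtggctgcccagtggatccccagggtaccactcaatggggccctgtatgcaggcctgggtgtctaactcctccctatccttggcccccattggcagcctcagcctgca
Ncmap: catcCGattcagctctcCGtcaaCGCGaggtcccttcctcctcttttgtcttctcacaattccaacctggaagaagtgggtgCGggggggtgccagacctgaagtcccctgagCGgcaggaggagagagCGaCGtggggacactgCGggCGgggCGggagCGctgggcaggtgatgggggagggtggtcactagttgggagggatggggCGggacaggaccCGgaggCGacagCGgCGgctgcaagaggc
The S100b window held 2 CG dinucleotides, a number at or below which 29% of all 32851 promoter windows lie. The Sox4 window held 11 and this Ncmap window 17, against a median of 6 over all windows, and 23.5% of windows held at least as many as Ncmap. A second Ncmap start held 8, and the 4 Pmp22 starts held 3, 14, 14 and 27. AACAAT, a core bound by Sox proteins, was searched on both strands and occurred in 9.42% of all windows. The longer AACAAAG occurred in 5.03% and the TATA box letters TATAAA in 12.4%. None of the 8 windows of these genes held any of the 3 strings, which says only that these letters are not in these windows. Sox9 lies on chromosome 11 and Sox10 on chromosome 15.

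All 10 probes were well above background in the tumour channel on 10 of 10 KI arrays, and none was saturated. This mark sets few genes apart, since 28386 of 28919 genes reached it on at least 5 KI arrays. Brightness differed widely. The net tumour signal of the main Sox10 probe (A_51_P346704) lay between 5810 and 17316 over the KI arrays, and that of the second Sox10 probe (A_52_P192625) between 35.9 and 89.6. Reference signal of that second probe was well above background on 6 of 10 KI arrays. The third Sox9 probe (A_51_P451606) was also dim, with 92.5 to 241. Intensities of the NIC and normal arrays were not used here. Each gene is represented below by its brightest probe on the KI arrays, and the other probes follow it. Over all genes the RNA samples of the same group correlated at 0.709 to 0.894 (KI), 0.935 (NIC) and 0.875 (normal). Across groups, r was 0.621 to 0.791 for KI tumours with NIC pools and 0.385 to 0.5 for KI tumours with normal glands.

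Sox4 was high in every tumour sample. Its level was 1.51, 1.15, 1.48, 2.11 and 1.0 in KI tumours 1 to 5, 1.55 and 1.87 in the NIC pools, and −1.33 and −1.03 in the normal glands. All 7 tumour samples lay above both normal glands, and the NIC pools lay inside the range of the KI tumours. Group means were 1.45 ± 0.43 in KI tumours (SD, n = 5), 1.71 ± 0.23 in NIC pools (SD, n = 2) and −1.18 ± 0.21 in normal glands (SD, n = 2). This makes Sox4 6.18-fold higher in KI tumours and 7.42-fold higher in NIC pools than in normal glands.

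Sox9 followed the same order of groups. The brightest Sox9 probe (A_52_P214630) read 1.86, 1.78, 1.99, 1.61 and 1.26 in KI tumours, 1.95 and 2.92 in NIC pools, and −0.17 and −0.92 in normal glands. Means were 1.70 ± 0.28 in KI tumours (SD, n = 5), 2.43 ± 0.68 in NIC pools and −0.55 ± 0.53 in normal glands (SD, n = 2 each), with the tumour and normal values apart. The Sox9 differences from normal gland were 2.25 ± 0.32 for KI and 2.98 ± 0.46 for NIC (log2, SE), or 4.74-fold and 7.90-fold. The second bright Sox9 probe (A_52_P577484) differed from normal gland by 3.17 in KI and 3.30 in NIC. The dim Sox9 probe showed much less, 0.24 in KI and 0.39 in NIC, with levels from −0.061 to 0.12 in KI tumours, 0.14 and 0.20 in NIC pools, and −0.25 and −0.18 in normal glands. Even there the tumour and normal values did not overlap.

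**Figure D1:**
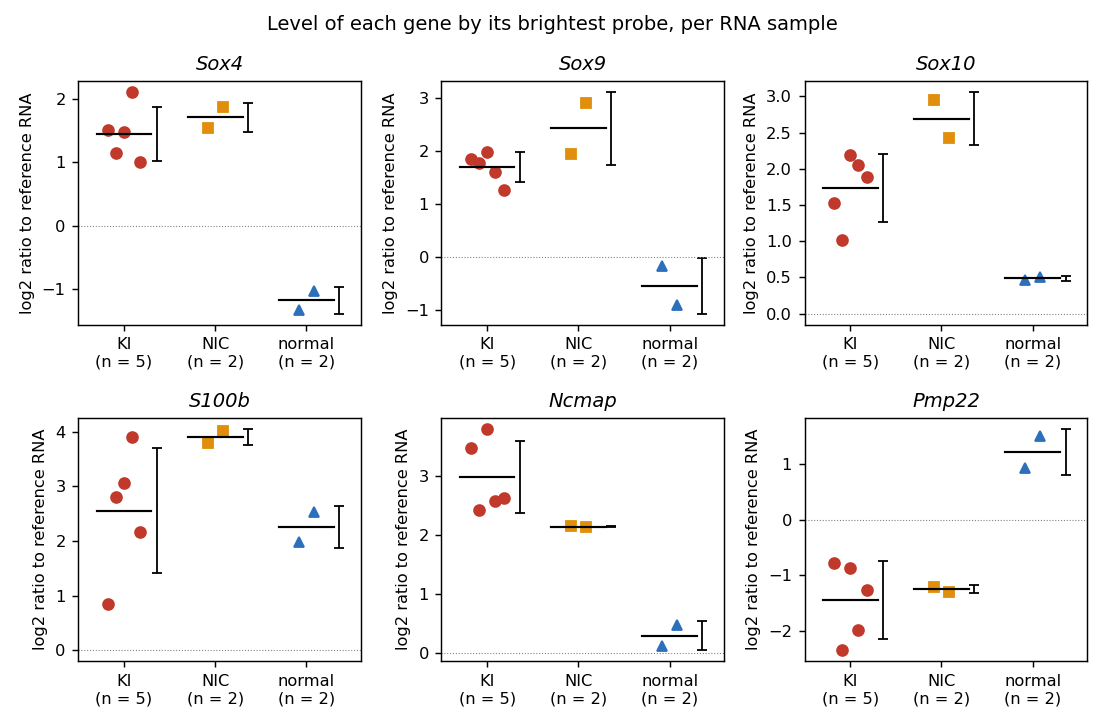
Log2 ratio to the reference RNA (vertical axes) of each gene by its brightest probe, with 1 point per RNA sample in the KI, NIC and normal groups, a line at the group mean and a bar for its SD. Sox4, Sox9, Sox10 and Ncmap lie above the normal glands in every tumour sample, Pmp22 lies below them, and S100b overlaps with the normal glands in KI tumours only.

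Sox10 was highest in the NIC pools. The brighter Sox10 probe read 1.53, 1.02, 2.19, 2.05 and 1.88 in KI tumours, 2.95 and 2.43 in NIC pools, and 0.46 and 0.51 in normal glands. The 3 groups did not overlap, and KI tumours lay between the others. Sox10 means were 1.73 ± 0.47 in KI tumours (SD, n = 5), 2.69 ± 0.37 in NIC pools and 0.48 ± 0.032 in normal glands (SD, n = 2 each). Sox10 was thus 2.38-fold higher in KI tumours and 4.62-fold higher in NIC pools than in normal glands. The dim Sox10 probe read 0.038 to 0.21 in KI tumours, 0.73 and 0.55 in NIC pools, and 0.028 and 0.013 in normal glands. Its NIC pools stood apart, while its KI tumours exceeded the normal glands by 0.088 on average.

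S100b varied most among the KI tumours. Its level was 0.85, 2.81, 3.06, 3.90 and 2.16 in KI tumours 1 to 5, 3.80 and 4.01 in NIC pools, and 1.99 and 2.53 in normal glands. Both NIC pools exceeded both normal glands, whereas KI tumour 1 lay below the normal glands, KI tumour 5 between them and KI tumours 2, 3 and 4 above them. The S100b means were 2.55 ± 1.14 in KI tumours (SD, n = 5), 3.91 ± 0.15 in NIC pools and 2.26 ± 0.38 in normal glands (SD, n = 2 each). S100b was 3.14-fold higher in NIC pools than in normal glands. For KI tumours the difference from normal gland was 0.30 ± 0.71 (log2, SE), and it was −0.041 without KI tumour 4, −0.36 with KI values rebuilt from the scanner intensities and −0.11 with the scanner software's ratios. The 2 arrays of NIC pool 1 differed by 1.76 for S100b, the widest gap between dyes for any of the 10 probes, against a median gap of 0.217 over all probes in NIC pools. Both S100b readings of that pool, 2.92 with the sample in Cy3 and 4.69 in Cy5, lay above the level of either normal gland.

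By the deposited values, Ncmap was highest in KI tumours. It read 3.47, 2.42, 3.80, 2.58 and 2.63 in KI tumours, 2.15 and 2.14 in NIC pools, and 0.12 and 0.47 in normal glands. Every KI tumour exceeded both NIC pools, and both NIC pools exceeded the normal glands. With KI values rebuilt from the scanner intensities, the KI tumours read 1.74 to 2.67, a range that holds both NIC pools. Ncmap means were 2.98 ± 0.61 in KI tumours (SD, n = 5), 2.14 ± 0.0084 in NIC pools and 0.29 ± 0.25 in normal glands (SD, n = 2 each), which places it 6.44-fold higher in KI tumours and 3.61-fold higher in NIC pools than in normal glands.

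Pmp22 was the gene of the 6 with lower values in tumours. Its brighter probe (A_51_P258529) read −0.77, −2.35, −0.86, −1.99 and −1.26 in KI tumours, −1.20 and −1.29 in NIC pools, and 0.93 and 1.52 in normal glands. No tumour sample reached the level of either normal gland. Means were −1.45 ± 0.70 in KI tumours (SD, n = 5), −1.25 ± 0.06 in NIC pools and 1.23 ± 0.42 in normal glands (SD, n = 2 each). Pmp22 was 6.39-fold lower in KI tumours and 5.56-fold lower in NIC pools than in normal glands. The second Pmp22 probe (A_52_P1067763) showed little of this difference, −0.15 in KI and −0.29 in NIC. It read −0.0055 to 0.21 in KI tumours, −0.076 and −0.023 in NIC pools, and 0.13 and 0.35 in normal glands. Its KI values overlapped with the normal glands.

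**Figure D2:**
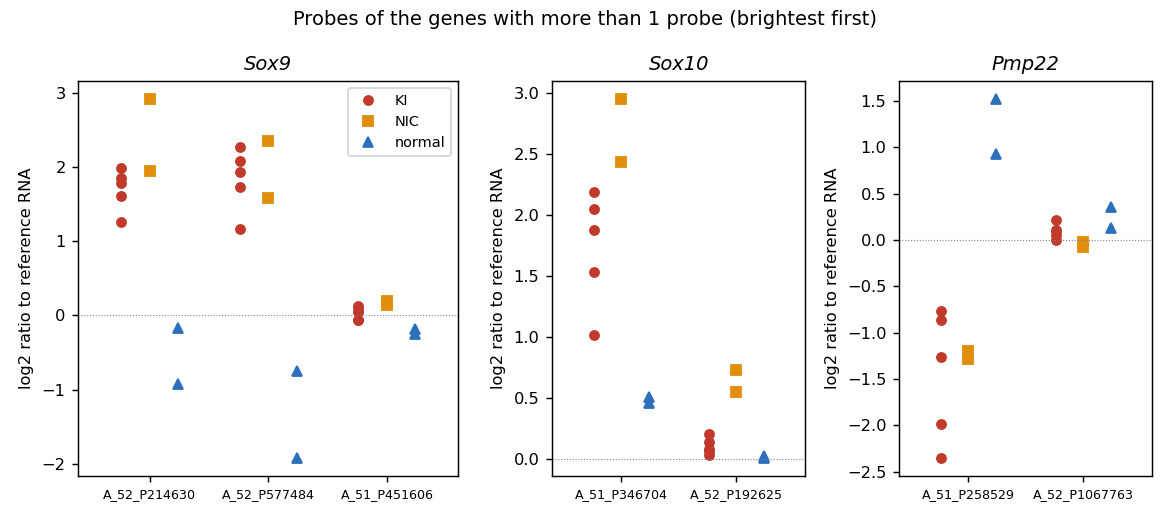
Log2 ratio to the reference RNA (vertical axes) for every probe of Sox9, Sox10 and Pmp22 (horizontal axes, brightest first), with 1 point per RNA sample in the KI, NIC and normal groups. The dim probes of Sox9 and Sox10 and the second Pmp22 probe span less than 1 log2 unit where the brightest probes span more than 2.

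Set against all genes, the differences from normal gland are a description only, since these values chose the genes. A gene was called where limma's adjusted p was under 0.05. In NIC minus normal, 5 of the 6 genes were called higher and 1 lower, where 18.6% of all genes were called (8.79% higher and 9.81% lower), and the median difference was 2.03 against −0.057 over all genes. Sox9 and S100b were not called with the sample in Cy3 only, S100b was not called with all 9 RNA samples in the fit, Sox9 and Sox10 were not called when either normal gland was left out, and none of the 6 was called when either NIC pool was left out. In KI minus normal, 4 were called higher, 1 lower and S100b was not called, where 42.7% of all genes were called (17.8% higher and 24.9% lower), and the median was 1.75 against −0.026. Nothing is read from these counts, and both comparisons use the same 2 normal glands. By probe, 7 of 10 were called higher and 1 lower in NIC minus normal (18.4% of all probes called, 9.82% higher and 8.62% lower), and 6 higher and 1 lower in KI minus normal (42.2% called, 20.1% higher and 22.2% lower). KI values come from another deposited table and platform record than NIC and normal values, so table and KI group cannot be told apart in any comparison of KI tumours.

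KI tumours and NIC pools are both driven by ErbB2, and the comparison between them was fitted as well. The genes were picked with tumour values in view, so p-values and intervals of this comparison are not an independent test. None of the 6 genes was called, where limma called 6.21% of all genes (2.93% higher and 3.28% lower in KI), and 1 of them, Sox10, had an unadjusted p under 0.05. Groups did not overlap for 2 of the 6, Sox10 and Ncmap, as for 31.1% of all genes. The median difference over the 6 was −0.50, against 0.0035 over all genes. Standard errors and intervals of this comparison rest on a common spread for single tumours, pools and normal glands.

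Sox10 was lower in KI tumours by its brighter probe, 1.73 ± 0.47 against 2.69 ± 0.37 in NIC pools. The difference was −0.96 ± 0.31 (log2, SE; 95% interval −1.69 to −0.23; limma p = 0.0168, adjusted p = 0.124), and it kept its sign in all 21 alternatives. Adjusted p over those alternatives ran between 0.0293 and 0.478, and the fit of all arrays with the RNA sample as a random block was the one that called it. The dim Sox10 probe, in a fit of every probe on its own, was the only one of the 10 to be called, where 6.99% of all probes were called (3.02% higher and 3.97% lower in KI). It averaged 0.11 ± 0.068 in KI tumours (SD, n = 5) and 0.64 ± 0.13 in NIC pools (SD, n = 2), a difference of −0.53 ± 0.074 (log2, SE; limma adjusted p = 0.00936; 95% interval −0.71 to −0.36). Without NIC pool 1 it was −0.44 (adjusted p = 0.0695), and with the scanner software's ratios it turned to 0.24 (adjusted p = 0.722).

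S100b averaged 2.55 in KI tumours and 3.91 in NIC pools, a difference of −1.35 ± 0.71 (log2, SE) with a 95% interval of −3.02 to 0.31 and a limma adjusted p of 0.323. Ncmap averaged 2.98 in KI tumours and 2.14 in NIC pools, a difference of 0.84 ± 0.39 (95% interval −0.067 to 1.74; limma adjusted p = 0.261). With KI values rebuilt from the scanner intensities the KI tumours read 2.47, 1.74, 2.67, 1.78 and 1.80, and the Ncmap difference was −0.051. Sox9 differed by −0.74 ± 0.32 on its brightest probe (interval −1.48 to 0.01; limma adjusted p = 0.232) and by −0.13 on the second bright probe (interval −1.07 to 0.81). Sox4 differed by −0.26 ± 0.28 (interval −0.92 to 0.40; limma adjusted p = 0.659). Pmp22 differed by −0.20 ± 0.45 (interval −1.25 to 0.85; limma adjusted p = 0.853), and by 0.027 without KI tumour 2, whose Pmp22 level was the lowest. For these 5 genes the intervals include 0 and also include differences of 0.4 log2 units or more, so the groups are not shown to be alike.

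**Figure D3:**
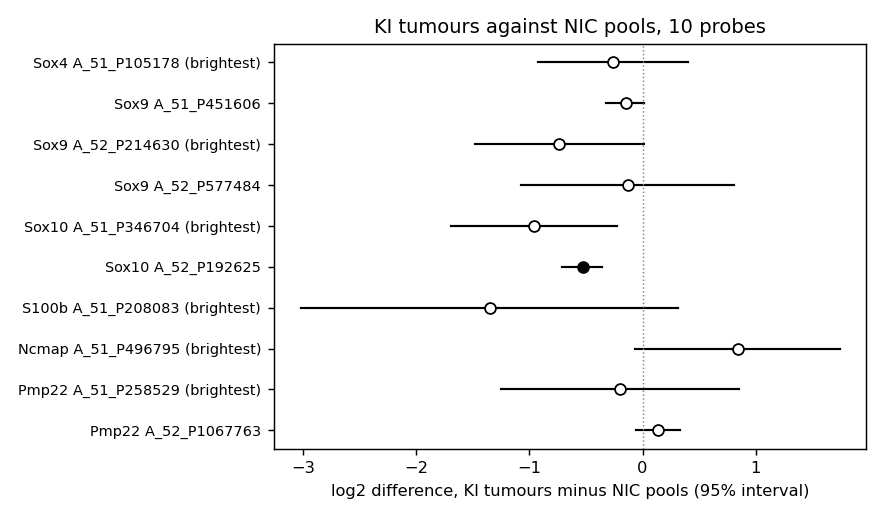
Difference between KI tumours and NIC pools (horizontal axis, log2, KI minus NIC) for the 10 probes, with 95% intervals; a filled point marks an adjusted p under 0.05. The dim Sox10 probe A_52_P192625 at −0.53 is the filled point, and the interval of the brighter Sox10 probe also lies below 0.

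The single tumours did not rank alike for the different genes. KI tumour 4 had the highest Sox4 and S100b, KI tumour 3 the highest Sox9, Sox10 and Ncmap, and KI tumour 1 the highest Pmp22. KI tumour 5 had the lowest Sox4 and Sox9, and KI tumour 2 the lowest Sox10, Ncmap and Pmp22. Over the 9 RNA samples, which include the split between tumour and normal, Sox4 and Sox9 correlated at r = 0.918, and over the 5 KI tumours alone at 0.279. Ncmap and Pmp22 correlated at −0.697 over the 9 and at 0.859 over the 5 KI tumours, where tumours 1 and 3 were highest for both. S100b and Ncmap correlated at 0.0108 over the 9. These values describe few samples that share the reference RNA, and no p is given.

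For each gene, the named genes of the whole array with the highest r over the 9 RNA samples were listed, 3 per gene. For Sox10 they were Stac2 (0.981), Prc1 (0.971) and Kank4 (0.97). Stac2 read 0.54, −1.31, 2.25, 2.47 and 1.47 in KI tumours, 3.30 and 3.07 in NIC pools, and −2.22 and −2.59 in normal glands. Its r with Sox10 within the KI tumours was 0.986 (n = 5), but these tumours are among the 9 RNA samples that picked Stac2. For Sox4 they were Gon4l (0.988), Atp6v1g2 (0.987) and Glt1d1 (0.985), and for Sox9 Faap20 (0.99), Cd82 (0.984) and Syngr2 (0.981). For S100b the likeness was weaker, with Haghl (0.939), Rbmx (0.928) and 2410141K09Rik (0.927). Ncmap was most like Slfn2 (0.979), Pak4 (0.978) and Adam28 (0.977), and Pmp22 most like Fam205c (0.989), Art3 (0.987) and Prss30 (0.987). Art3 read 2.30, 1.24, 2.59, 1.51 and 2.16 in KI tumours, 2.41 and 2.10 in NIC pools, and 4.37 and 4.41 in normal glands, and its lowest KI tumours, 2 and 4, were also the lowest for Pmp22.

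The gene lists that follow are given beside the shares of all genes called, and nothing is read from their counts. Those shares were 8.79% higher and 9.81% lower in NIC minus normal, and 17.8% higher and 24.9% lower in KI minus normal. In KI minus NIC they were 2.93% higher and 3.28% lower. Besides the 3 above, 16 Sox genes were measured. Every NIC minus normal call in this and the following paragraphs was lost when either NIC pool was left out. In NIC minus normal 3 were called higher and 1 lower by limma, with a median difference of −0.10 (all genes −0.057). In KI minus normal 4 were called in each direction, with a median of −0.034 (all genes −0.026; 3 to 5 higher and 2 to 4 lower with 1 RNA sample left out). Sox5, which acts with Sox6 and Sox9 in cartilage formation, read 1.95, 2.77, 1.26, 2.43 and 1.96 in KI tumours, 2.44 and 2.25 in NIC pools, and −0.36 and −0.47 in normal glands. Sox5 rose by 2.49 ± 0.36 in KI tumours (SE, limma adjusted p = 0.00158) and 2.75 ± 0.12 in NIC pools (limma adjusted p = 0.00815). Its 3 other probes differed by −0.69 to 0.30 in KI and −0.46 to 0.77 in NIC. Sox21, a close relative of Sox2, rose by 1.43 ± 0.24 in KI and 1.12 ± 0.11 in NIC, and Sox12, of the same subgroup as Sox4, by 0.71 ± 0.12 and 0.61 ± 0.099 (limma adjusted p between 0.00296 and 0.0366 for the 4 values). The 2 other Sox21 probes differed by 0.74 and 0.90 in KI and by 0.091 and 0.51 in NIC. Sox17, an endothelial and endodermal factor, fell by 0.76 in KI tumours (limma adjusted p = 0.00579), and the endothelial factor Sox7 fell by 2.94 in NIC pools (adjusted p = 0.0108). Between KI tumours and NIC pools 1 of 16 was called, Sox6, which was 0.75 ± 0.43 in KI tumours (SD, n = 5) and 2.30 ± 0.08 in NIC pools (SD, n = 2; limma difference −1.55, adjusted p = 0.0422), and this call was lost in 6 of 9 fits that left out 1 RNA sample.

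Cartilage matrix genes, which Sox9 is known to regulate in chondrocytes, were read next. Of 11 measured, 5 rose and 1 fell in NIC pools (median 0.45), and 4 rose and 2 fell in KI tumours (median 0.45; 2 to 4 higher with 1 RNA sample left out). Hapln1 was the gene that fell in NIC pools (−0.62), and Hapln1 and Acan fell in KI tumours (−0.63 and −0.27). A second Hapln1 probe differed by 0.0092 in NIC and −0.0054 in KI. Col2a1 was not called and differed by −1.51 in NIC and −0.82 in KI, with its other probe at −0.12 and −0.055. Col9a1, a chain of collagen IX, read 3.71, 3.99, 4.20, 3.66 and 3.91 in KI tumours, 4.07 and 4.19 in NIC pools, and 0.49 and 1.49 in normal glands. Its rise was 2.91 ± 0.26 in KI (limma adjusted p = 0.000295) and 3.14 ± 0.38 in NIC (adjusted p = 0.0231). Col9a3, another collagen IX chain, rose by 2.31 ± 0.40 in KI and 3.24 ± 0.11 in NIC (limma adjusted p = 0.00335 and 0.00776). Col11a1, of collagen XI, rose by 4.41 ± 0.19 in NIC pools (limma adjusted p = 0.00808), with its 2 other probes at 2.25 and 3.35. In KI tumours its difference was 2.07 ± 0.71 (limma adjusted p = 0.0499), a call lost in 8 of 9 fits that left out 1 RNA sample. The 2 other Col11a1 probes differed from normal gland by −0.028 and 1.32 in KI tumours. Comp, a cartilage oligomeric protein, read 0.24 to 1.95 in KI tumours and 3.0 and 3.42 in NIC pools, and it was the 1 cartilage gene of 11 called between them (limma difference −2.31 ± 0.41, adjusted p = 0.0226; lost without KI tumour 5 and without either NIC pool). Col11a1 differed by −2.34 (limma adjusted p = 0.105) and Col9a2 by −1.07 (adjusted p = 0.0577), and 0 to 3 of the 11 were called lower with 1 RNA sample left out.

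The calls of 16 other myelin genes are given beside the shares of all genes called, and nothing is read from these counts. Those shares were 8.79% higher and 9.81% lower in NIC minus normal, and 17.8% higher and 24.9% lower in KI minus normal. In NIC pools limma called 4 lower and none higher (median −0.052; 2 were higher at an unadjusted p under 0.05), and 2 higher and 3 lower in KI tumours (median 0.00031; 0 to 3 higher and 3 to 4 lower with 1 RNA sample left out). Mbp, myelin basic protein, read 0.68 to 1.72 in KI tumours, 1.62 and 1.47 in NIC pools, and 1.07 and 1.16 in normal glands on its brightest probe, with overlap between KI and normal. The 2 other Mbp probes lay lower in tumours, by −3.12 and −0.41 in KI minus normal and by −3.11 and −0.30 in NIC minus normal. The fatty acid hydroxylase gene Fa2h and, on its brightest probe, the adhesion gene Nfasc were lower in both tumour groups, by 0.56 to 0.82 log2 units. The other Nfasc probes showed none of this, with −0.049 to 0.019 in KI and −0.00062 to 0.0079 in NIC. The periaxin gene Prx was higher in KI tumours by 0.43 ± 0.099 (limma adjusted p = 0.0112; lost without normal gland 2).

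Egr2 and Mal separated the tumour groups. Egr2, the partner of Sox10 in Schwann cells, read 1.27, 0.20, 2.94, 1.12 and 0.79 in KI tumours and −1.93 and −2.24 in NIC pools, a limma difference of 3.35 ± 0.72 (adjusted p = 0.0406), while the normal glands read −0.61 and 1.01. The Egr2 call was lost in 5 of 9 fits that left out 1 RNA sample. Mal, a membrane proteolipid of myelin and of epithelial apical transport, read 2.13, 1.57, 0.27, 1.5 and 1.28 in KI tumours, −1.71 and −1.51 in NIC pools, and 0.46 and 0.93 in normal glands. Its KI minus NIC difference was 2.96 ± 0.43 (limma adjusted p = 0.0118), with its other probe at 1.68, and it was lost without either NIC pool. Over the same samples the brighter Sox10 probe averaged 1.73 in KI tumours and 2.69 in NIC pools.

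Of 11 other glial and neural crest genes, 1 rose and 1 fell in NIC pools (median −0.10), and 3 rose and 4 fell in KI tumours (median −0.024; 1 to 3 higher and 3 to 4 lower with 1 RNA sample left out). Erbb3, the neuregulin receptor that pairs with ErbB2 in Schwann cells and in mammary epithelium, read 2.99 to 3.54 in KI tumours, 3.56 and 3.69 in NIC pools, and 1.54 and 2.02 in normal glands. Its rise was 1.55 ± 0.17 in KI (limma adjusted p = 0.000661) and 1.85 ± 0.21 in NIC (adjusted p = 0.0204), on the brightest of 5 probes, with the others between −0.45 and 0.24 in KI and −0.03 and 0.85 in NIC. Gfap, the intermediate filament of glia, fell by 0.70 in KI tumours and by 0.72 in NIC pools (limma adjusted p = 0.000519 and 0.0362), while its second probe differed by −0.13 in both. Limma called none of these 11 genes between KI tumours and NIC pools, and 0 had an unadjusted p under 0.05. Among 11 neuronal genes 2 fell in NIC pools, and 1 rose and 3 fell in KI tumours. Among 8 melanocyte genes 1 rose in NIC pools, and 1 rose and 2 fell in KI tumours. Of all genes, 8.79% were called higher and 9.81% lower in NIC pools, and 17.8% higher and 24.9% lower in KI tumours. Nothing is read from the counts of these 3 lists.

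Relatives of S100b and Pmp22 split in direction. Of 14 other S100 genes, 1 rose and 1 fell in NIC pools (median −0.28), and 4 rose and 2 fell in KI tumours (median 0.46). With 1 RNA sample left out, 1 to 7 were higher in KI tumours, 7 without KI tumour 2 and 1 without normal gland 1. S100a16, another calcium-binding S100 gene, rose by 1.69 ± 0.43 in KI and 2.93 ± 0.42 in NIC (limma adjusted p = 0.016, lost without normal gland 2, and 0.0297). The S100 genes that fell were S100a10 in NIC pools (−1.29), and S100a4 (−0.87) and S100a13 (−0.80) in KI tumours. S100a8, made by neutrophils and stressed epithelia, read 2.84, 0.56, 3.46, 3.15 and 4.04 in KI tumours, −2.34 and −0.43 in NIC pools, and −2.23 and −1.09 in normal glands. It was the S100 gene called between KI tumours and NIC pools (limma difference 4.19 ± 0.95, adjusted p = 0.046; lost in 8 of 9 fits that left out 1 RNA sample). Of 6 relatives of Pmp22, 1 rose and 2 fell in NIC pools, and 2 rose and 2 fell in KI tumours. With 1 RNA sample left out, 1 to 2 were higher and 0 to 1 lower in KI tumours. Perp, an adhesion-associated relative expressed in epithelia, rose by 2.33 ± 0.55 in KI and 2.77 ± 0.34 in NIC (limma adjusted p = 0.0127, lost without normal gland 1, and 0.023), opposite to the lower Pmp22 values. The relatives that fell, in the direction of Pmp22, were Nkg7 (−1.49 in KI and −1.58 in NIC) and Emp3 (−0.54 and −0.86). A second Nkg7 probe differed by −1.21 in KI and −1.31 in NIC. The KI calls of both genes were lost in most fits that left out 1 RNA sample. Emp2, an epithelial membrane protein of the same family, read 0.46 to 1.16 in KI tumours, −0.66 and −0.68 in NIC pools, and −1.72 and −0.91 in normal glands. Emp2 rose by 2.18 ± 0.26 in KI tumours against normal glands (limma adjusted p = 0.000795) and by 1.53 ± 0.26 against NIC pools (adjusted p = 0.0193; lost without either NIC pool).

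**Figure D4:**
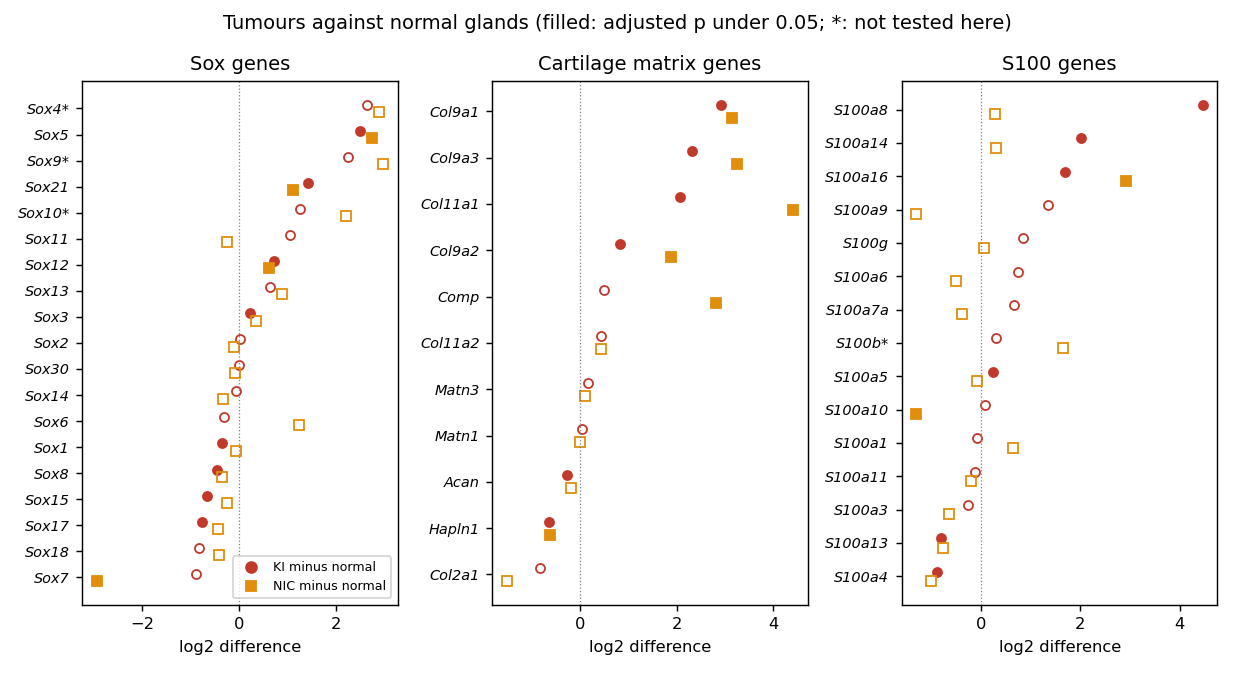
Log2 difference from normal glands (horizontal axes) of Sox genes, cartilage matrix genes and S100 genes, 1 row per gene, for KI minus normal and NIC minus normal. Filled points have an adjusted p under 0.05. Starred genes were chosen with these values in view and are drawn open whatever their adjusted p, with no test read from them. Col9a1, Col9a3, Sox5 and S100a16 lie to the right in both comparisons, and Hapln1 and Col2a1 to the left.

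Whole tissue was sampled, and in such tissue fewer cells of a type and less RNA per cell cannot be told apart. The mammary epithelial markers Epcam, Krt8, Krt18, Elf5 and Kit were each well above background on 10 of 10 KI arrays. Most genes of the array reached that mark on at least 5 KI arrays. Elf5 and Kit had log2 ratios of at least 3.92 in all 9 RNA samples. The counts below stand against shares of all genes called of 8.79% higher and 9.81% lower in NIC pools. In KI tumours those shares were 17.8% higher and 24.9% lower. The median level of 15 adipocyte genes was −0.048 to 0.43 in KI tumours, 0.04 to 0.36 in NIC pools, and 3.60 to 3.88 in normal glands, and 12 of 15 fell in each tumour group. For 15 fibroblast genes the median was −1.44 to 0.41 in KI tumours, −1.73 to −0.91 in NIC pools and 0.36 to 0.57 in normal glands, and 4 fell in KI tumours and 8 in NIC pools. For 10 endothelial genes it was 0.94 to 2.25, 0.82 to 1.42 and 2.69 to 3.03 in the same groups, with 2 lower in KI and 6 lower in NIC. For 19 luminal genes it was 2.05 to 2.86 in KI tumours, 1.63 to 2.20 in NIC pools and 0.53 to 0.91 in normal glands, with 12 higher and 1 lower in KI, and 8 higher and 2 lower in NIC. Foxa1, a luminal transcription factor, fell by 3.91 in KI tumours and fell by 3.04 in NIC pools (limma adjusted p = 3.53e-05 and 0.0179). For 17 basal genes it was 0.19 to 1.76 in KI tumours, 0.015 to 0.045 in NIC pools and 0.67 to 0.95 in normal glands, with 5 higher and 6 lower in KI, and 1 higher and 7 lower in NIC. The smooth muscle myosin gene Myh11 fell by 2.14 in KI tumours and fell by 2.40 in NIC pools (limma adjusted p = 0.00329 and 0.0183). Between KI tumours and NIC pools 2 of 17 basal genes were called higher and 0 lower. Krt14, a basal keratin, was 7.22-fold higher in KI tumours than in NIC pools (limma adjusted p = 0.00232). The other 15 were not called, among them Krt5, Trp63, Acta2 and Myh11. Krt5 read 0.19 and 0.16 in KI tumours 1 and 2, 2.06, 2.49 and 2.07 in KI tumours 3 to 5, and 0.68 and 0.35 in NIC pools. The 16 myelin genes had medians of 0.012 to 0.14 in KI tumours, 0.022 to 0.097 in NIC pools and 0.17 to 0.19 in normal glands. Log ratios have no true zero, so absence of a cell type cannot be read from them, and no probe was matched here for the Schwann cell gene Pmp2 and the glial gene Cdh19. The part of these markers in the values of Sox4, Sox9, Sox10, S100b, Ncmap and Pmp22 was not tested.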

How the data were processed

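Messenger RNA of 9 samples was measured on 18 Agilent 2-colour arrays. The authors deposited log2 ratios of sample over reference in separate tables for NIC with normal arrays and for KI arrays. RMA is listed, without a role, in the submitters' processing notes, and no other step is stated in those sources. Spots of both tables were named through the KI scanner files, whose deposited intensity and background values and log10 ratios were written, per the file headers, by version A.7.5.1 of Agilent Feature Extraction. KI columns matched their own arrays in size and sign, with the scanner ratios oriented by the label fields. Pearson r was 0.941 to 0.953 with the software's ratios. It was 0.982 to 0.988 with ratios rebuilt by normexp (offset 50) and loess, where the 0.29% of spots marked as outliers had no weight. Scale and direction of the NIC and normal table were taken by analogy. For 7 KI arrays the dyes in the labelling protocols are opposite to those in the label fields, which were followed. Column medians lay between −0.0049 and 0.0172.

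The 2256 control spots were left out, and 41174 probes were reduced to 28919 genes by their brightest probe on the KI arrays. Names came from a RefSeq table (GRCm38.p6) by accession (20708 probes), symbol (5045) or older symbol (5279), and 10142 kept the name in the file. The dye pair was averaged per RNA sample. limma 3.58.1 in R 4.3.3 (lmFit, eBayes, two-sided, Benjamini-Hochberg over all genes, version 1.17.8 of the data.table package) fitted NIC minus normal on its 4 RNA samples and both KI comparisons on all 9, and was tested on simulated data. Labels say nothing of litters. The p-values therefore reflect spread among the RNA samples at hand, whose number limits the precision. The 6 genes and all gene lists were chosen with earlier results of these data known. From each list up to 4 called genes per comparison, those with the largest difference, could be named. Other genes are named as cell type markers, Hapln1, Acan and Col2a1 as cartilage genes with lower values, and S100a13 as an S100 gene with lower values. The alternatives covered dye orientation, a random block for the RNA sample, scaling, the choice of probe, a filter on dim probes, the prior variance, the samples fitted, rebuilt KI values, the image extraction day and leaving out each RNA sample. The fits behind the second Sox10 probe were added after seeing the data. Values of some genes of the myelin list are not reported here.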

Additional observations from a re-analysis of the deposited data

How the results depend on the processing

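The number of calls moved by over 1.5 times under these settings. With every probe fitted on its own, the KI minus NIC count below is of probes, 6.99% of 41174, against 6.21% of genes in the main fit. NIC minus normal had 5379 calls, 2041 with the sample in Cy3 only, 10638 with a random block for the RNA sample, 10396 with all 9 RNA samples in the fit, and 0 to 4236 with 1 RNA sample left out. The limma count of 0 came without either NIC pool, where 6402 and 6977 genes had an unadjusted p under 0.05, and it also ends every NIC minus normal call named here. Of Sox4, Sox9, Sox10, S100b, Ncmap and Pmp22, 0 to 4 were called with 1 RNA sample left out, 4 with the sample in Cy3 only (not Sox9 and S100b) and 5 with all 9 RNA samples in the fit (not S100b). KI minus normal had 12350 calls, 8134 with arrays scaled to a common spread, and 9274 to 12071 with 1 RNA sample left out (4 to 5 of the 6 genes). KI minus NIC had 1795 calls, 4012 with the random block (1 of the 6 genes, Sox10), 2878 with every probe fitted on its own, 3716 with rebuilt KI values, and 507 to 2105 with 1 RNA sample left out (0 of the 6 genes). It had 880 without KI tumour 5, 507 without NIC pool 1 and 595 without NIC pool 2.

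Directions turned for S100b in KI minus normal (−0.041 without KI tumour 4 and up to 0.72 without another RNA sample, −0.36 with rebuilt values, −0.11 with the scanner software's ratios), for Ncmap in KI minus NIC (−0.051, rebuilt), for Pmp22 in KI minus NIC (0.027 without KI tumour 2, down to −0.37 without another), and for the mean KI level of the second Pmp22 probe (−0.033 with the sample in Cy3 only). The second Sox10 probe gave 0.24 with the scanner software's ratios and −0.62 to −0.44 with 1 RNA sample left out. Otherwise Sox4, Sox9, Sox10, Ncmap and Pmp22 kept their direction against normal gland in all 13 alternatives for NIC and all 21 for KI. The cause of these changes was not tested. No paired analysis was possible because the replicate numbers only name the samples.

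Few RNA samples, a pooled NIC group and a KI table of its own limit what the comparisons show. Signal over background of the NIC and normal arrays was not used here.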
